A study of Mus musculus with 64 samples.

Results

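Lars2 (ENSMUSG00000035202) encodes mitochondrial leucyl-tRNA synthetase, and the values below follow its row, 1 gene of the 54331 in the deposited table, over all 64 libraries. The gene was chosen by its measured share of the counts over time and diet and by how that share ran with sequencing depth and with the mitochondrially encoded genes, so those values are given as a description without a test. The libraries were made from early distal convoluted tubules (DCT), the nephron segment that reabsorbs sodium chloride through the cotransporter Slc12a3, dissected from mouse kidneys. All groups carried C57BL/6-Tg (Pvalb-tdTomato)15Gfng/J, a transgene in which cells that express parvalbumin, an early DCT protein, carry a red fluorescent protein, and all mice ate the control diet at the start. Females and males were then given food with furosemide, a loop diuretic that acts on the thick ascending limb, the segment before the DCT, for 12, 24, 48 or 96 h, or stayed on control food to the same time. Each of the 16 groups of sex, diet and time held 4 libraries, and the age of the mice is not given in the sources used here. The sources do not say that each library came from its own mouse, so a p-value here measures the spread between libraries, which may be technical.

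A leucyl-tRNA synthetase joins leucine to its transfer RNAs, and Lars2 does this inside mitochondria for mt-Tl1 and mt-Tl2, the mitochondrial leucine tRNAs. The protein is encoded in the nucleus, made in the cytosol and imported, while the mRNAs it serves, the 13 protein-coding genes of mitochondrial DNA, are transcribed inside the organelle and encode subunits of the respiratory chain and of ATP synthase. DCT cells are packed with mitochondria, which supply the ATP that the sodium pump uses during salt reabsorption.

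In the GENCODE M21 annotation of GRCm38, Lars2 lies on the plus strand at chr9:123366927-123462666 and has 9 transcripts, of which 3 are protein-coding. The protein-coding transcript used here has 3894 bases in 21 exons, and its 3′ UTR of 986 bases lies in the last exon, exon 21. Runs of 31 identical bases were searched between this transcript and the transcripts of the other genes in the table, on both strands. Of 54096 genes with a transcript, 2 shared such a run, or 0.0037%, and these were the predicted antisense gene Gm15564 and the unclassified gene AA474408. Both matches lie in the 3′ UTR. With any of the 9 Lars2 transcripts, on the same strand, 39 genes shared such a run, or 0.0721%. Gm15564 matched over 72 bases at chr9:123462048-123462119 with 71 identical, the difference being A3330T. In its longest stretch without gaps, AA474408 matched over 57 bases at chr9:123462043-123462099 with 56 identical, the difference being G3314A. Its shared runs of 31 bases span positions 3172 to 3313, so some lie before that stretch. Positions count from 1 at the 5′ end of the Lars2 transcript, and the Lars2 base comes before the position. A 30-base window of it, positions 3300 to 3329 (chr9:123462070-123462099, plus strand), is shown because it holds the difference between Lars2 and AA474408, in capitals, inside the sequence that all 3 share.
Lars2: ttcacccactaataGggaacgtgagctggg
Gm15564: ttcacccactaataGggaacgtgagctggg
AA474408: ttcacccactaataAggaacgtgagctggg

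The Lars2 form of this window occurs in transcripts of 2 genes, Lars2 and Gm15564, and the other form occurs in AA474408 alone. The deposited values are sums per gene, so they do not show where along Lars2 the reads fell. The sequence of nuclear ribosomal RNA was not used here, so the window was not compared with it. Reads in the shared stretch can be assigned to any of these genes, and the division among them is an estimate.

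Lars2 was among the most abundant rows of nearly every library. It ranked at 1 among all genes in 10 libraries, within the top 3 in 53 and within the top 5 in 60, and its lowest rank was 21. Its level, in counts for each 1000000 counts of a library (CPM), had a median of 33590 and ran from 3727 to 46140, a 12.4-fold range. These levels rest on 124710 to 971480 Lars2 counts per library. In the library with the fewest, female control 96 h replicate 4, Lars2 took 0.385% of the counts with a 95% Wilson interval of 0.383% to 0.387%, so counting error, which is all the interval covers, is small beside the spread between libraries.

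Before the groups are described, some libraries stand apart. Total counts ran from 12.7 M to 35.7 M (M, counts in units of 1000000) in the 48 libraries of 12 to 48 h and from 22.9 M to 41.1 M in the 16 libraries of 96 h, so time and depth cannot be told apart between these sets. Over genes with a mean of at least 3 log2 CPM, 3 libraries were least like the rest of their group. Female control 24 h replicate 3 had a median Spearman correlation with its group of 0.474. That of female control 48 h replicate 4 was 0.721, male furosemide 12 h replicate 4 had 0.741, and all others had 0.813 or more. The summed level of 6 DCT markers ran from 6310 to 19939 CPM and none of them was at 0 throughout. The 4 thick ascending limb markers summed to 1749 to 9471 CPM and the 4 connecting tubule markers to 428 to 6431 CPM, while the sums of the 4 proximal tubule markers reached at most 125.8 CPM and those of the 3 principal cell markers 131.8 CPM. Sums of 3 markers each reached 1446 CPM for podocytes (median 28.2), 1053 CPM for immune cells (median 178.5) and 464.3 CPM for endothelium (median 256.2). In bulk tubules, fewer cells of a type and less RNA per cell cannot be told apart.

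At 12 h, Lars2 in female controls stood at 34980, 34281, 40186 and 33670 CPM, and in females on furosemide at 29723, 34026, 42670 and 33321 CPM, so the female groups overlapped. Male controls had 37573, 37137, 35559 and 46140 CPM, and males on furosemide 31829, 32644, 29740 and 16748 CPM. All 4 males on furosemide lay below the lowest male control. Over both sexes the log2 difference, furosemide minus control, was −0.29 (0.818-fold), beside a pooled SD between libraries of 0.273. It was −0.04 in females and −0.54 in males, and without male furosemide 12 h replicate 4 the value for both sexes was −0.18. It was −0.15 when levels were scaled by the trimmed mean of M-values (TMM) instead of by all counts.

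At 24 h the female controls were spread widely, at 27756, 22448, 10877 and 34065 CPM, while females on furosemide lay close together at 32667, 37637, 37029 and 37405 CPM. Male controls had 27696, 37667, 30503 and 37959 CPM, and males on furosemide 35878, 38552, 35450 and 40320 CPM. All 8 furosemide libraries stood above the control median of 29130 CPM, and 2 of 8 above every control. The log2 difference was 0.45 (1.37-fold, pooled SD 0.382), 0.72 in females and 0.18 in males. It was 0.28 without female control 24 h replicate 3, the lowest library of the early times.

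At 48 h the diets overlapped in both sexes. Female controls had 37904, 29449, 39363 and 31196 CPM and females on furosemide 37639, 33510, 42763 and 44194 CPM. Male controls had 29247, 37420, 42866 and 42627 CPM and males on furosemide 36377, 40524, 42766 and 43129 CPM. The log2 difference was 0.16 (1.11-fold), less than the pooled SD of 0.197. It was 0.09 without male control 48 h replicate 1 and 0.42 with TMM scaling.

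At 96 h the level was lower and more uneven. Female controls had 16363, 6205, 10777 and 3852 CPM and females on furosemide 3920, 23358, 18342 and 29626 CPM. Male controls had 10169, 15226, 3727 and 9901 CPM and males on furosemide 10256, 10428, 20636 and 23809 CPM. The groups overlapped: 5 of 8 furosemide libraries lay above every control, 7 of 8 above the control median of 10035 CPM, and 1, female replicate 1, stayed near the lowest controls. The log2 difference was 0.85 (1.80-fold), less than the pooled SD of 0.965, with 0.89 in females and 0.80 in males.

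**Figure D1:**
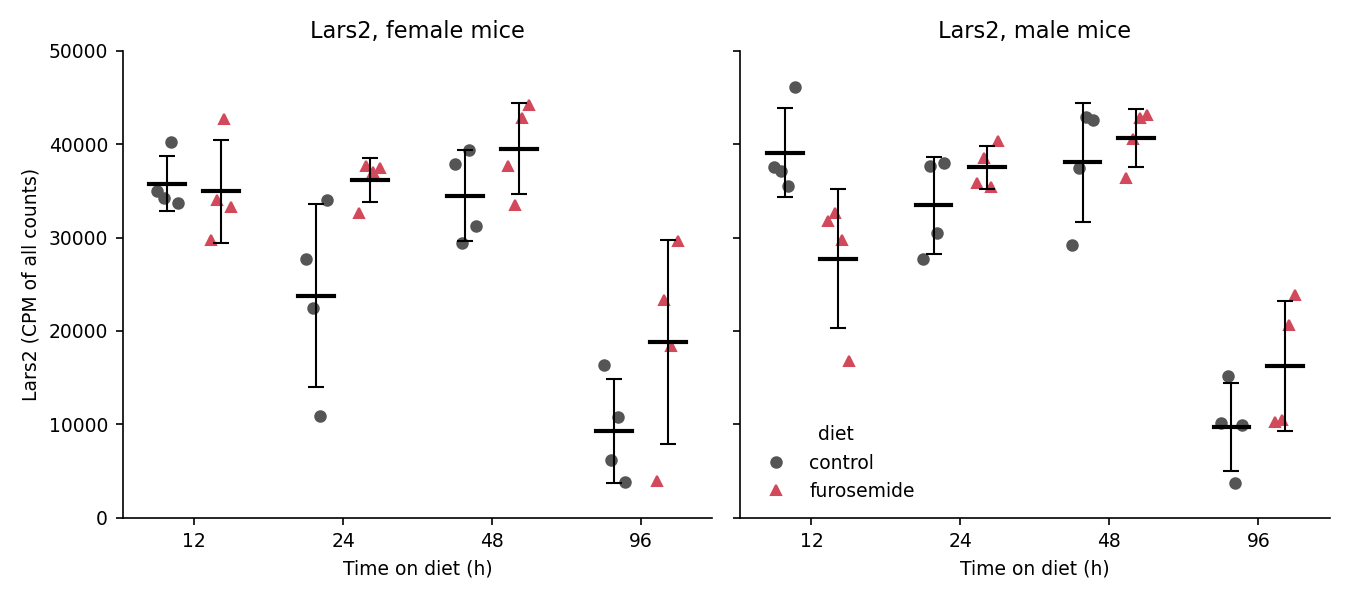
Lars2 level in CPM of all counts (linear axis from 0) against time on the diet, females on the left and males on the right. Each point is 1 library (4 per group), the thick bar is the group mean and the whiskers are 1 SD. The libraries of 96 h lie lowest, between 3727 and 29626 CPM, and the low points of the earlier times are female control 24 h replicate 3 and male furosemide 12 h replicate 4.

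Ordered by mean over both sexes (± SD, n = 8 each), Lars2 stood at 40113 ± 3848 CPM with furosemide at 48 h, 37441 ± 4090 in controls at 12 h, 36867 ± 2277 with furosemide at 24 h and 36259 ± 5594 in controls at 48 h. Below these came furosemide at 12 h with 31337 ± 7167 CPM, controls at 24 h with 28621 ± 8919, furosemide at 96 h with 17547 ± 8607 and controls at 96 h with 9528 ± 4754. Neighbours in this order differed by less than the larger of their SDs except at 1 step, from controls at 24 h to furosemide at 96 h. Of the 16 libraries of 96 h, 9 lay below the lowest of the 48 earlier libraries. Between 96 h and the mean of the earlier times, the log2 difference was −1.98 in controls (0.253-fold, pooled SD 0.535) and −1.24 with furosemide (0.423-fold, pooled SD 0.555). The share of counts from all mitochondrially encoded genes differed the same way, with a median of 17.8% at 12 to 48 h (range 2.4% to 25.5%) and 10.8% at 96 h (range 3.73% to 19.1%).

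The relation to depth was not the same at all times. Correlations are a description across libraries that share their totals with the Lars2 values. At 12 to 48 h the Pearson correlation of log2 Lars2 with log2 total counts was −0.40 and the Spearman rho −0.03 (n = 48). Without female control 24 h replicate 3 and male furosemide 12 h replicate 4, the deepest libraries there at 33.6 M and 35.7 M counts and the lowest in Lars2, r was 0.14 and rho 0.10, so the relation rested on these 2. With TMM scaling r was 0.26 with these 2 libraries and 0.59 without them. Females and males, pooled here, differed in depth at 12 h, with 14.8 M to 19.8 M and 20.2 M to 35.7 M counts. Over residuals from the 16 group means of sex, diet and time (n = 64), r was −0.053 with TMM scaling. At 96 h r was −0.54 and rho −0.60 (n = 16), and −0.47 and −0.53 without the 2 libraries farthest from the median depth. Within the 8 furosemide libraries of 96 h r was −0.69, and within the 8 controls −0.13. Without the 2 libraries farthest from the median depth of each set, these were −0.91 and 0.42 (n = 6 each). Also at 96 h, libraries with less Lars2 had more genes with a count above 0, with r = −0.76 and rho = −0.83 over a range of 38736 to 44750 genes.

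The mitochondrial share ran with Lars2 at 12 to 48 h and, among the 96 h libraries, most clearly in those with furosemide. At 12 to 48 h r was 0.64 and rho 0.47, and 0.51 and 0.43 without the 2 libraries farthest from the median share. At 96 h r was 0.40 and rho 0.45. Within the 8 furosemide libraries of 96 h r was 0.65 and rho 0.79, and within the 8 controls −0.17 and 0.05. Without the 2 libraries farthest from the median share of each set, they were 0.70 and 0.77 with furosemide and 0.15 and 0.37 in controls (n = 6 each). The sign of r in controls thus hung on 2 libraries. Over the residuals from the 16 group means (n = 64), r was 0.44 with the mitochondrial share and −0.46 with depth, and 0.38 and −0.053 with TMM scaling. Both measures are part of how Lars2 was chosen, so their diet differences are given without a test. Furosemide minus control, the log2 difference at 12, 24, 48 and 96 h was −0.22, 0.41, 0.02 and 0.27 for the share of the 13 mitochondrial mRNAs and 0.17, −0.03, 0.19 and −0.15 for total counts.

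**Figure D2:**
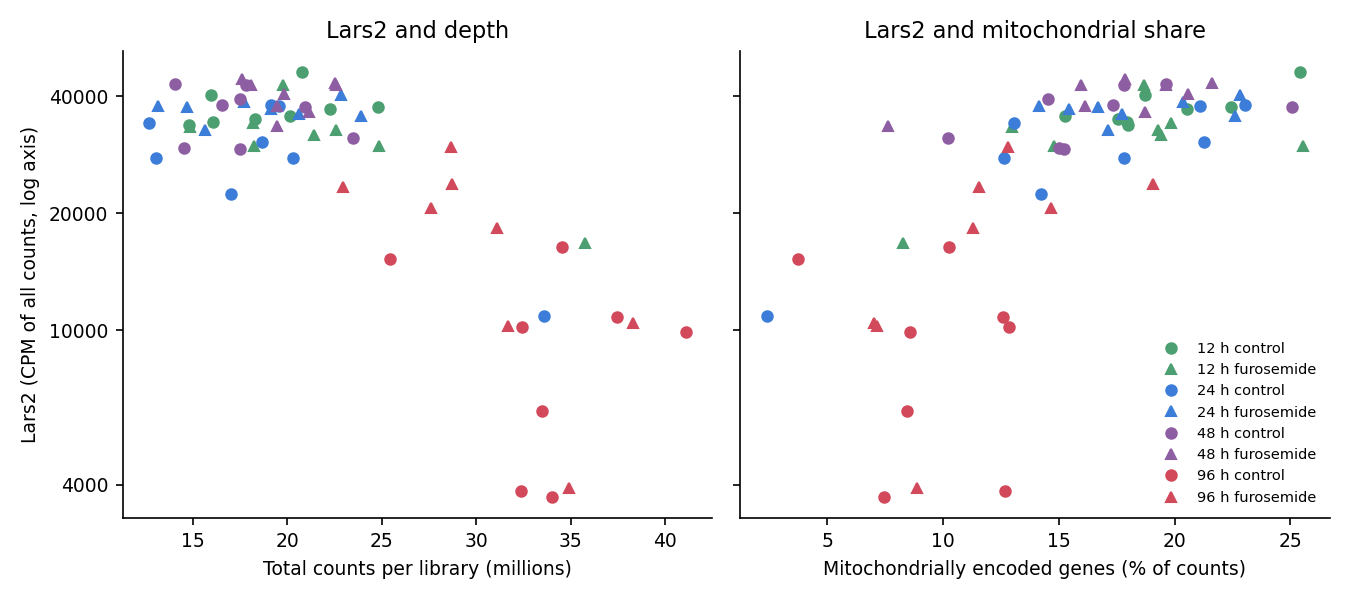
Lars2 level (CPM of all counts, log axis) against total counts in units of 1000000 (left) and against the percentage of counts from mitochondrially encoded genes (right). Each point is 1 of 64 libraries, coloured by time, with circles for control and triangles for furosemide. The libraries of 96 h spread from 3727 to 29626 CPM, and the 2 deepest libraries of the earlier times lie among them.

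At 96 h the levels of some cell type markers moved with Lars2 as well. The summed connecting tubule markers had a Spearman rho of −0.74 with Lars2 over residuals from the group means (n = 16), and the DCT markers −0.61, while at 12 to 48 h both were near 0 (−0.00 and −0.03, n = 48). Within the 8 controls of 96 h rho was −0.74 for the connecting tubule sum and −0.93 for the DCT sum, and within the 8 furosemide libraries −0.71 and −0.05. At 96 h rho was also negative for thick ascending limb (−0.47) and podocyte markers (−0.52). It was positive for principal cell markers (0.59, with a median sum of only 4.87 CPM) and endothelial markers (0.54). For proximal tubule, intercalated, immune and erythroid markers it lay between −0.12 and 0.13. Many genes ran against Lars2 within 96 h. Over levels rather than residuals, the median rho of 11746 genes was −0.27, and 4455 of them lay below −0.5 (n = 16). The connecting tubule sum ran from 1920 to 4735 CPM in the 96 h controls and from 1448 to 6431 CPM with furosemide, with none of its 4 markers at 0 in all libraries. The DCT sum ran from 7067 to 11584 CPM and from 7232 to 10767 CPM in the same groups. Their part in the Lars2 values was not tested.

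Likeness to Lars2 was measured by Spearman rho over log2 CPM among 11746 genes with a mean of at least 3 log2 CPM, once over the 64 libraries and once over residuals from the 16 group means. Gm15564 was first by both, with rho = 0.978 and 0.982. The log2 ratio of Lars2 to Gm15564 was 4.01 ± 0.06 at 12 to 48 h (SD, n = 48) and 4.27 ± 0.18 at 96 h (n = 16), so the ratio of these genes varied far less than either level. AA474408, which also shares sequence with Lars2, came after Mir6236 over the 64 libraries with rho = 0.892 (0.883 over residuals). Both genes of the table that share a run of 31 bases with the Lars2 transcript used here were among the 3 most alike over the 64 libraries.

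Between them stood Mir6236, a microRNA gene at chr9:110281287-110281409 with rho = 0.920 (0.905 over residuals). It shares no run of 31 bases with the Lars2 transcript used here on either strand, nor with the other Lars2 transcripts on the same strand. Its mature sequence in RefSeq (GRCm38.p6, chr9:110281353-110281371, plus strand) is shown because this row followed Lars2 without such a match, with the seed, bases 2 to 8, in capitals.
mmu-miR-6236: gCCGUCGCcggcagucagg

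The deposited value of Mir6236 is for its gene row, in a library of full-length cDNA, and does not measure the mature microRNA. Mir6236 had a median of 2595 CPM at 12 to 48 h and 564.99 CPM at 96 h, against 2366 and 631.5 CPM for AA474408 and 2273 and 585.3 CPM for Gm15564. In female control 24 h replicate 3 the 3 genes parted: Gm15564 was at 604.3 CPM, in step with Lars2, while AA474408 was at 75.1 CPM and Mir6236 at 87.8 CPM, the lowest value of each over all libraries. That library also held the highest level of CT010467.1, annotated as ribosomal RNA, with 26136 CPM.

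CT010467.1 gives a contrast, since it is also abundant, with medians above those of these genes, and followed Lars2 less closely. Its median was 4775 CPM at 12 to 48 h and 4230 CPM at 96 h, and its rho with Lars2 was 0.42 over the 64 libraries and 0.04 over residuals. The list of ribosomal RNA models also holds Gm15564 and the noncoding RNAs Gm26917 and Gm42418, of which the last pair had rho = −0.26 and 0.02 over the 64 libraries but 0.84 and 0.87 within 96 h.

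**Figure D3:**
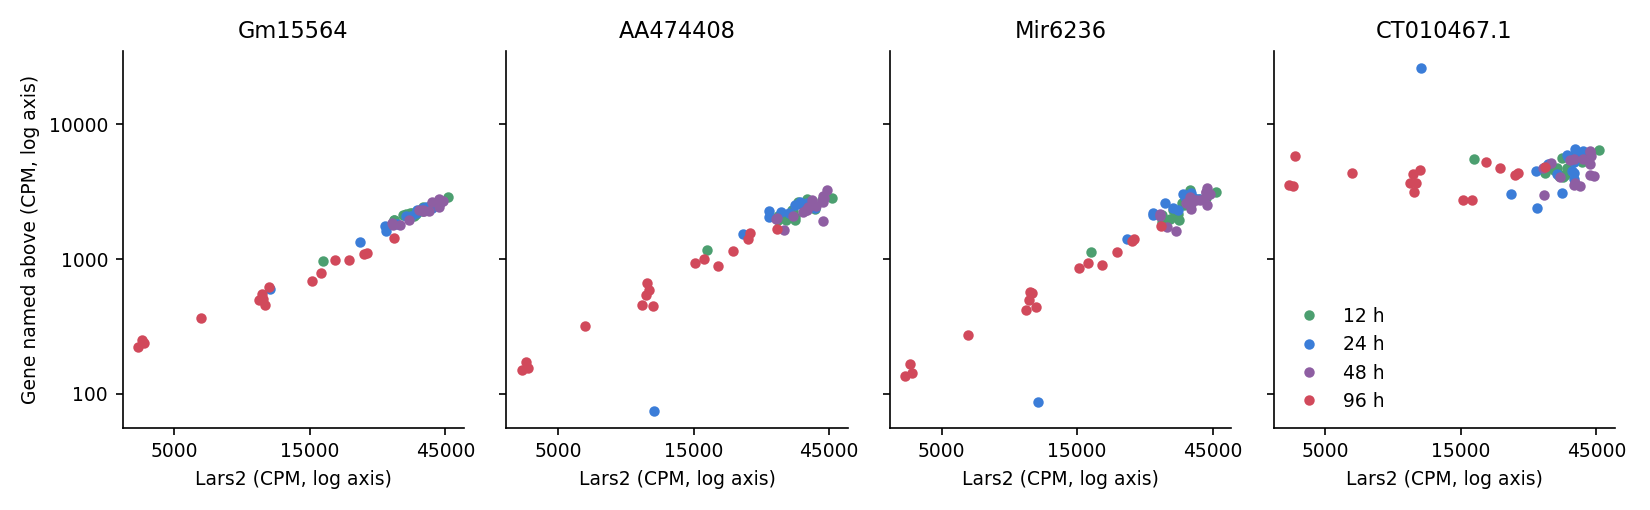
Level of Gm15564, AA474408, Mir6236 and CT010467.1 (CPM of all counts, log axis) against that of Lars2 (CPM, log axis), with 1 point per library coloured by time. The first 3 genes rise along with Lars2 over its whole range, with 1 library of 24 h far below the trend in AA474408 and Mir6236, and CT010467.1 lies between 2383 and 6560 CPM apart from the same library at 26136 CPM.

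By the same rule, Nme7 (a nucleoside diphosphate kinase family member of cilia, rho = 0.819) and Gm24245 (annotated as a microRNA gene, 0.799) followed over the 64 libraries, and Gm24245 (0.929), Gm26377 (0.868) and the olfactory receptor gene Olfr620 (0.831) were among the first over residuals. Olfr620 stood at a median of 6607 CPM and ran from 30.1 to 12113 CPM. None of these 4 shares a run of 31 bases with the Lars2 transcript used here on either strand, or with another Lars2 transcript on the same strand. The most opposite over the 64 libraries were Rheb, a small GTPase that activates mTORC1 (rho = −0.772), Ube2g1, a ubiquitin-conjugating enzyme (−0.747), the splicing factor Rbm17 (−0.747) and Bckdhb, a subunit of the branched-chain ketoacid dehydrogenase (−0.746). Over residuals they were Maf1, a repressor of RNA polymerase III (−0.738), the secretory cargo receptor Tmed2 (−0.728), Tusc2 (−0.702) and Strap (−0.700).

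Within 96 h a large part of the table ran with or against Lars2. There, 4455 of 11746 genes had rho below −0.5 and 1847 above 0.5 (n = 16), against 4 and 13 genes within 12 to 48 h (n = 48). A rho beyond 0.5 arises more easily with 16 libraries than with 48. Lars2 also ranged 7.95-fold at 96 h, against 2.06-fold at 12 to 48 h without its 2 lowest libraries. The counts of the earlier and later times are thus not directly comparable. These genes share the same libraries and totals, so the counts describe these libraries only. Of 4 structural noncoding RNAs at this level, Rn7sk, which holds the elongation factor P-TEFb inactive, had rho = 0.745 with Lars2 over the 64 libraries, Neat1 0.365, Rn7s1 −0.149 and Malat1 −0.424. The mitochondrial ribosomal RNAs mt-Rnr2 and mt-Rnr1 had 0.731 and 0.587.

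The genes next to Lars2 on chromosome 9 were far lower. On the side of lower coordinates, the nearest protein-coding genes had medians of 0.775 CPM for Clec3b, 11.2 for Cdcp1 and 0.628 for Tmem158, and their rho with Lars2 was −0.10, 0.14 and −0.38. On the other side, Limd1 had a median of 66.4 CPM (rho = 0.11), Sacm1l 55.1 CPM (rho = −0.42) and Slc6a20b, a transporter of the SLC6 family, 55.0 CPM (rho = 0.53).

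The Lars2 row also stood far above those of its own enzyme family. Exon length here joins the exons of all annotated transcripts of a gene, 11.1 kb for Lars2. The values do not show where along Lars2 its reads fell, so levels per kb need not compare the mRNAs of these enzymes. Per kb of exon Lars2 had a median of 3029 CPM (range 336.1 to 4161). The medians of 18 other genes for mitochondrial synthetases ran from 0.575 to 18.5 CPM per kb, with Gars the highest. They include Gars and Kars, which serve both compartments. The 18 cytosolic synthetases ran from 1.78 to 15.3 CPM per kb. In 64 of 64 libraries Lars2 exceeded the sum of the other 18 mitochondrial synthetases per kb, by at least 2.14 times. Lars, the cytosolic leucyl-tRNA synthetase, had a median of 12.2 CPM (range 5.27 to 22.4). The substrates of Lars2 were low as deposited: mt-Tl1 had a median of 5.25 CPM (range 0.626 to 12.2) and mt-Tl2 1.62 CPM (range 0 to 5.77).

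**Figure D4:**
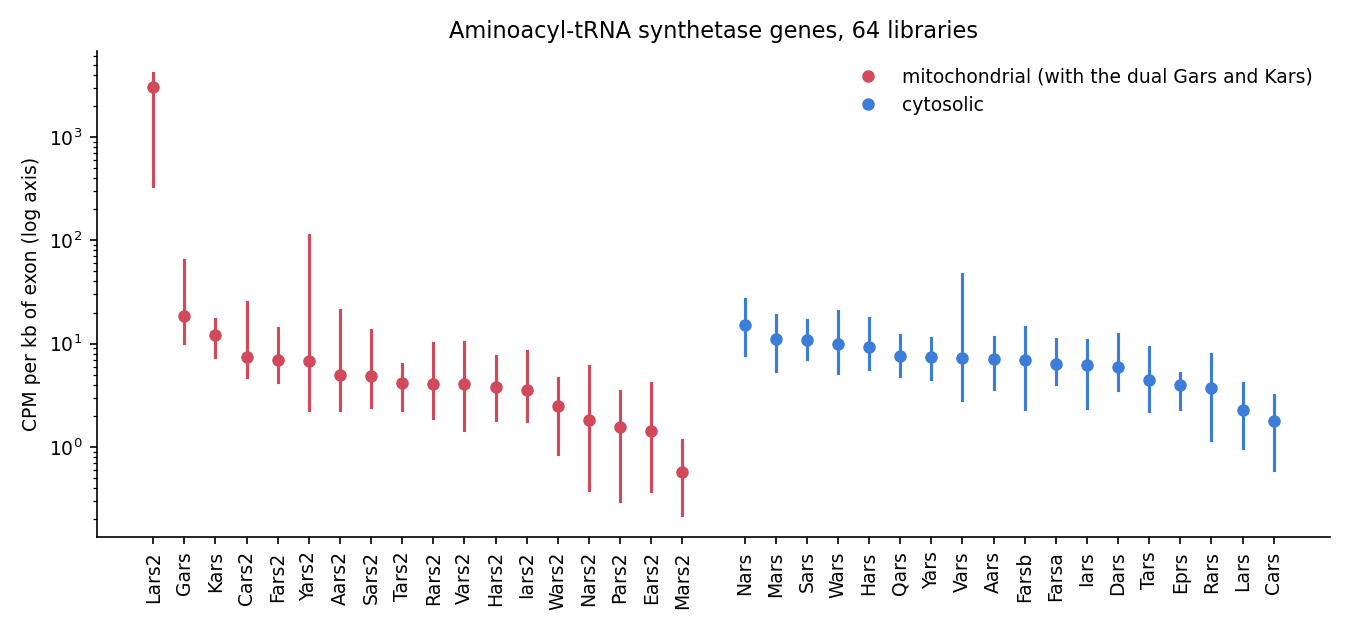
CPM per kb of annotated exon (log axis) of aminoacyl-tRNA synthetase genes, mitochondrial (red, Lars2 at the left and 17 of the 18 others) and cytosolic (blue). Points are medians over 64 libraries and lines run from the lowest to the highest library. Lars2 has a median of 3029 CPM per kb and the next highest gene, Gars, 18.5. Exon length joins all annotated transcripts of a gene, and where along Lars2 the reads fell is not known.

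Where Lars2 was lower at 96 h, most other synthetases had positive log2 fold changes, 16 of 18 mitochondrial and 17 of 18 cytosolic ones. Between 96 h and the earlier times in controls, edgeR's quasi-likelihood test (p adjusted by Benjamini-Hochberg) called 5111 of 41507 genes, or 12.3%, with 7.5% higher and 4.82% lower. Of the calls 60.9% were higher (35.9% under DESeq2, whose scaling moved the median of all genes from −0.00 to −0.17 on the log2 scale). Lars2 and the mitochondrially encoded genes get no test here. Of the 18 other mitochondrial synthetases, 2 rose and 0 fell, a share near the background, with a median log2 fold change of 0.29. Rars2, the arginyl enzyme, rose by 0.94 (SE 0.204, adjusted p = 0.000783) from a median of 9.998 CPM (range 5.27 to 15.5, n = 24) to 22.6 CPM (range 14.1 to 28.2, n = 8), and the groups overlapped slightly.

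Of the 18 cytosolic synthetases, 9 rose and 0 fell (7 and 1 under DESeq2), with a median log2 fold change of 0.51 against −0.00 over all genes. Marker sums of other cell types moved over the same span: the median was 1493 CPM at 12 to 48 h in both diets and 2814 CPM in the 96 h controls for connecting tubule, and 156.0 and 391.3 CPM for immune cells. Their part in the changes over time was not tested. Dars, the cytosolic aspartyl enzyme, rose by 0.92 (SE 0.165, adjusted p = 4.61e-05), from a median of 20.9 CPM (range 15.4 to 38.1) to 46.2 CPM (range 33.9 to 53.4). Nars (0.79, SE 0.159), Tars (0.84, SE 0.170) and Rars (0.77, SE 0.203) rose likewise. Lars did not pass, at 0.19 (SE 0.186, adjusted p = 0.608). Of 10 mitochondrial translation factors 3 rose and 0 fell (2 and 1 under DESeq2): the elongation factor Gfm1 by 0.92 (SE 0.172), Gfm2, which acts in ribosome recycling, by 0.65 (SE 0.161) and the formyltransferase Mtfmt by 0.41 (SE 0.129, adjusted p = 0.0262). Mtfmt was not called under DESeq2 (adjusted p = 0.115) or in 3 of 32 fits without 1 library.

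Among 8 rows of structural noncoding RNAs, where Rmrp has 2 rows, Malat1 rose by 1.21 (SE 0.180) and Rn7s1, an RNA of the signal recognition particle, by 0.69 (SE 0.202, not called in 2 of 32 fits without 1 library), while Rn7sk fell by 2.08 (SE 0.230) and 1 row of Rmrp, the RNA of RNase MRP, fell by 2.84 (SE 0.639). Rn7sk had a median of 53.5 CPM at 12 to 48 h and 12.3 CPM at 96 h in controls, with no overlap (23.0 to 72.6 against 4.18 to 17.2 CPM). The 13 mitochondrial mRNAs, given without a test since their share is part of how Lars2 was chosen, had a median log2 fold change of −0.80 and were all negative, and mt-Rnr1 and mt-Rnr2 had −1.51 and −2.25.

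The count at 96 h rested partly on 1 library and on whether Lars2 was in the model. Without female control 24 h replicate 3 it was 8523, and without the 2 early libraries lowest in Lars2 it was 8759, where 11 cytosolic synthetases rose and 0 fell. With the log2 level of Lars2 as a further term, 407 genes were called and 0 of the synthetases, and Rars2 stood at −0.03 and Rars at −0.21. Rn7sk (−1.09, adjusted p = 0.0293) and Rn7s1 (1.73, adjusted p = 8.94e-05) were still called in that edgeR fit. For the genes that lost their call, time and the Lars2 level cannot be told apart.

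Between the diets, edgeR called no gene of the synthetase, translation factor or structural noncoding RNA lists at any time. Mitochondrially encoded genes are given no calls between diets, nor are the ribosomal RNA models, which include Gm15564. Lars2 was chosen by its share over the diets and by its relation to the mitochondrial share. The background was 0% at 12 h, 0.00964% at 24 h (0.00241% higher, 0.00723% lower), 0.00241% at 48 h and 0.0819% at 96 h (0.0699% higher, 0.012% lower). At an unadjusted p under 0.05, edgeR gave 2, 0, 0 and 1 of the 18 other mitochondrial synthetases and 5, 1, 3 and 0 of the 18 cytosolic ones at 12, 24, 48 and 96 h, against 3663, 3000, 3926 and 1439 of all 41507 genes. DESeq2 called 0 of either list, with 0.219%, 0.234%, 0.27% and 0.419% of all genes called. DESeq2 called 1 mitochondrial translation factor at 48 h, 1 structural noncoding RNA at 24 h and 1 at 96 h, all higher with furosemide. At 12 h all 18 cytosolic synthetases had a positive log2 fold change (median 0.33, all genes 0.00), and at 48 h 17 of 18 (median 0.37, all genes −0.10, or −0.22 under DESeq2). None of them was called at either time. These genes share the same libraries and totals, so their signs are not independent, and they were not tested as a set. The signs at 24 and 96 h are not given here.

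Sex was the comparison in which Lars2 could be tested. The level ran from 3852 to 44194 CPM with a median of 33416 in 32 female libraries, and from 3727 to 46140 CPM with a median of 35505 in 32 male libraries, so the sexes overlapped throughout. The log2 difference, female minus male over all diets and times, was −0.11 (SE 0.139, adjusted p = 0.863 by edgeR's quasi-likelihood test). It lay between −0.16 and −0.07 in the 64 fits that left out 1 library.

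Some mitochondrially encoded genes differed by sex, in both directions, in a comparison where 2.91% of all genes were called, 1.87% higher and 1.04% lower in females. Depth differed by sex as well. At 12 h total counts ran from 14.8 M to 19.8 M in females and from 20.2 M to 35.7 M in males, while at 96 h the ranges overlapped. The part of depth in the sex differences was not tested. Of the 13 mitochondrial mRNAs 6 were lower in females and 0 higher (9 and 0 under DESeq2), with a median log2 difference of −0.46. mt-Cytb, cytochrome b of complex III, had a median of 9267 CPM (range 2387 to 15183) in females and 15722 CPM (range 3029 to 22788) in males, a log2 difference of −0.73 (SE 0.138, adjusted p = 0.000256). The cytochrome oxidase subunits mt-Co3 (−0.63, SE 0.138) and mt-Co2 (−0.57, SE 0.131) and the complex I subunit mt-Nd4l (−0.46, SE 0.120) were also called lower. By time, the female median of mt-Cytb lay below the male one at 12 h (9793 against 16227 CPM), 24 h (8071 against 16951) and 48 h (8614 against 15933), and above it at 96 h (12376 against 9433).

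mt-Rnr1, the small mitochondrial ribosomal RNA, went the other way, and was higher in females by 0.87 (SE 0.111, adjusted p = 2.37e-08). At 12 h its female libraries ran from 3318 to 5452 CPM and its male ones from 343.7 to 1327 CPM, without overlap. At 96 h the medians were 580 and 474.6 CPM and the ranges overlapped. The change of either sex difference with time was not tested. mt-Rnr2 gave 0.09 (SE 0.124, adjusted p = 0.897). Of 22 mitochondrial tRNA rows, mt-Tm, for methionine, was higher in females (0.71, SE 0.144) and mt-Ts1, for serine, lower (−0.76, SE 0.141). The leucine tRNAs mt-Tl1 (−0.12, SE 0.134) and mt-Tl2 (−0.08, SE 0.225) did not pass. mt-Tm was low, with medians of 12.8 CPM in females and 7.10 in males, and 5.65 and 4.69 at 96 h. At 96 h the female median of mt-Ts1 lay above the male one (2105 against 1603 CPM). These changes with time were not tested. Such rows come from full-length cDNA without strand information and need not measure the mature tRNAs. No aminoacyl-tRNA synthetase was called by sex in edgeR (2 mitochondrial and 6 cytosolic at an unadjusted p under 0.05, against 5552 of all 41507 genes). DESeq2 called 1 and 2 of them, and 3.73% of all genes.

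**Figure D5:**
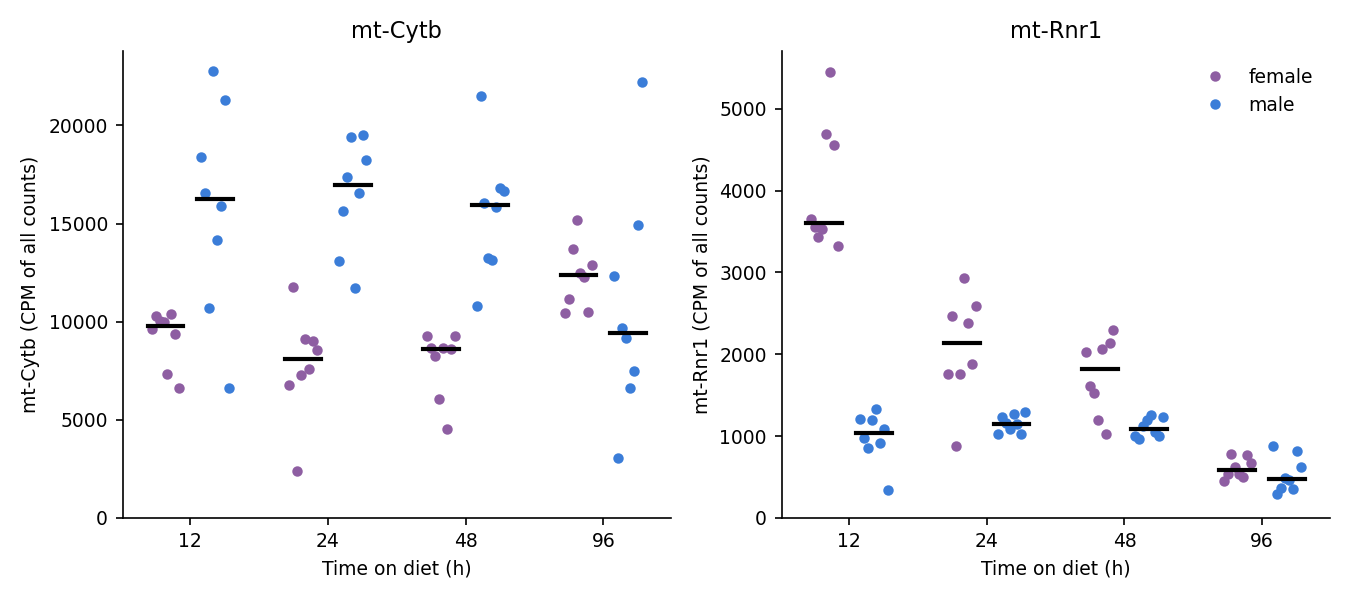
Level of mt-Cytb (left) and mt-Rnr1 (right) in CPM of all counts (linear axes from 0) against time on the diet, with 1 point per library, 8 per sex and time over both diets, and a bar at the median. mt-Rnr1 in females is highest at 12 h, with a median of 3605 CPM, and lies near the male values at 96 h.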

How the data were processed

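Early distal convoluted tubules of 64 samples were profiled by RNA-seq (column-purified total RNA, SMART-Seq HT cDNA and Nextera XT libraries, per the labels' protocols), a chemistry without strand information or molecular identifiers. The authors deposited estimated counts per gene (expected counts), made with Salmon 0.14.10 on GRCm38.p6 per the submitters' processing notes. The annotation release is not given in the sources used here. Of the values 55.0% were whole (within 1e-9), and all were rounded. By identifier, 54097 genes matched GENCODE M21 and 234 did not. The lowest chi-square per degree of freedom between libraries of a group was 13.2 over 96 pairs, so no pair agreed within counting noise.

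Lars2, the gene lists, the rule for named genes and the alternatives were chosen with earlier results of these data known. That rule names Lars2, the 6 genes most and 4 least like it by each of 2 rank correlations, the neighbouring genes, and in each list at most 4 called genes with the smallest p. Some genes that the rule names are not reported here. Lists covered aminoacyl-tRNA synthetases, mitochondrial translation factors, mitochondrially encoded genes, ribosomal RNA models (of which AY036118 did not reach the level for testing) and structural noncoding RNAs.

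CPM is the count in each 1000000 of all rounded counts. In log2 levels a pseudocount of 1 was added for likeness, neighbours and marker sums. The log2 Lars2 differences had none, nor had the Lars2 correlations with depth, mitochondrial share and genes detected, or the ratio to Gm15564. Genes were tested with edgeR 4.0.16 (R 4.3.3; quasi-likelihood, TMM, filterByExpr with a minimum count of 10, 1 mean for each of 16 groups, adjusted p under 0.05), checked on simulated counts. Fits without 1 library kept the gene filter and dispersion trend of the full fit. Single values per library are described without a test. A Lars2 transcript of 3894 bases was compared with GENCODE M21 transcripts by shared runs of 31 bases. Alternatives were DESeq2 1.42.0, no filter, a replicate block, scaling without Lars2 and mitochondrial genes, Lars2 as a covariate, other denominators and each library left out. Leaving out the 3 libraries of low similarity, or the 2 early ones lowest in Lars2, was added after seeing the data.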

Additional observations from a re-analysis of the deposited data

Results flagged for a closer look

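In 64 checks of a group of 4 libraries (Lars2 level, total counts, mitochondrial share and log2 ratio of Lars2 to Gm15564 in 16 groups), 3 had a library whose gap to the nearest other exceeded Dixon's 95% critical share of the group's range, and chance gives about 1 in 20 such groups. Female furosemide 24 h replicate 1 had Lars2 at 32667 CPM, where the others of its group lay between 37029 and 37637 CPM. Female control 24 h replicate 3 had 2.40% of its counts from mitochondrially encoded genes, where the others had 12.6% to 14.2%. Male furosemide 12 h replicate 4 had a log2 ratio of Lars2 to Gm15564 of 4.12, where the others had 3.92 to 3.94.

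In males the diet difference in Lars2 had opposite signs at different times. At 12 h all 4 furosemide libraries lay below the control median, with a log2 difference of −0.54, and at 24 and 96 h all 4 lay above it, with log2 differences of 0.18 and 0.80. The change between times was not tested.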

How the results depend on the processing

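The Lars2 differences by diet and time kept their signs under every alternative run, and 1 moved by more than the SD between libraries: with TMM scaling the 48 h difference was 0.42. The 12 h difference was −0.15 with TMM scaling. Leaving out 1 library gave −0.34 to −0.18 at 12 h, 0.28 to 0.56 at 24 h, 0.09 to 0.19 at 48 h, 0.64 to 1.17 at 96 h, −2.15 to −1.78 for 96 h against earlier in controls and −1.40 to −0.92 with furosemide. Its correlation with depth at 12 to 48 h changed sign without the 2 libraries farthest from the median depth (0.14) and with TMM scaling (0.26), and over residuals it was −0.053 with TMM. A correlation counted as moved at a shift of 0.2 or more. The counts of called genes moved with the tool, the Lars2 covariate and the libraries. DESeq2 called 91, 97, 112 and 174 genes between diets at 12, 24, 48 and 96 h, where edgeR called 0, 4, 1 and 34 with 3663, 3000, 3926 and 1439 at an unadjusted p under 0.05. The share of higher calls was 37.1% under DESeq2 and 25.0% under edgeR at 24 h, and 28.6% (median of all genes −0.22) and 100% (median −0.10) at 48 h. With Lars2 as a covariate the counts were 1 at 24 h, 2 at 48 h and 407 for 96 h against earlier. Without the 3 libraries of low similarity they were 3, 930 and 134 at 12, 48 and 96 h and 9678 for 96 h against earlier. Without the 2 early libraries lowest in Lars2 they were 3, 163 and 124, 8759, and 2046 for sex (1208 with all libraries). Leaving out 1 library gave 0 to 2 calls at 12 h, 0 to 11 at 24 h, 0 to 6 at 48 h, 18 to 90 at 96 h, 3650 to 8523 for 96 h against earlier and 1062 to 1691 for sex. At 96 h the lowest counts were 18, 19 and 22, without female control replicate 2, male control replicate 3 and female control replicate 4, and the highest were 80 and 90, without female control replicate 1 and female furosemide replicate 1. The cause of these changes was not tested. With the replicate number as a block, 0, 3, 1 and 31 genes were called between diets, 5138 for 96 h against earlier and 1128 for sex, and the Lars2 sex difference was −0.10. The numbers did not pair the samples: of 32 same-numbered pairs 10 had a correlation of deviations above 0.1, the median was −0.11 and 4 correlated best with their own number. With the Lars2 covariate 4 named genes changed sign between 96 h and earlier (Rars2 −0.032, Rars −0.21, Gfm2 −0.038, Lars −0.23). For the share of mitochondrial mRNAs at 48 h, leaving out 1 library gave −0.054 to 0.15, with 6 values below 0, and for total counts at 24 h −0.11 to 0.13, with 3 values above 0. For the other times these ranges were −0.33 to −0.05, 0.08 to 0.54 and 0.08 to 0.40 for the share at 12, 24 and 96 h, and 0.09 to 0.22, 0.14 to 0.26 and −0.22 to −0.10 for total counts at 12, 48 and 96 h.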

Other observations

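Gm24245, the microRNA gene closest to Lars2 after Gm15564 over residuals from the group means, differed by sex where Lars2 did not pass the test. It had a median of 1457 CPM (range 278.8 to 1974) in 32 female libraries and 2375 CPM (range 244.1 to 3143) in 32 male ones, a log2 difference of −0.61 (SE 0.130, adjusted p = 0.00169 by edgeR's quasi-likelihood test). At 48 h the ranges did not overlap, with 942.6 to 1816 CPM in females and 2375 to 3057 CPM in males, and at 96 h they did, with 278.8 to 1974 and 244.1 to 1320 CPM, and the female median of 872.3 CPM lay above the male one of 711.6 CPM. The difference between these genes in their sex effect was not tested, nor was the part of depth, which differed by sex at 12 h.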
